A study of Homo sapiens with 9 samples.

Results

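IFITM10 and its interferon-induced relatives IFITM1, IFITM2 and IFITM3 were followed through 9 RNA-seq libraries of MDA-MB-231 cells, an established line from a triple-negative breast cancer. The members were chosen by gene name, which gave 4 of the 61552 genes listed, and all 4 were among the 16571 genes with enough reads to test. IFITM10 was singled out because of how strongly it rose at 20 mM in these same libraries, so its change is described here without a test, whereas IFITM1, IFITM2 and IFITM3 were included as its relatives and were tested. Cells were kept for 24 h with PBS (control, labelled 0 mM), 10 mM 2-DG or 20 mM 2-DG, with 3 libraries in each group. 2-DG (2-deoxy-D-glucose) is a glucose analogue that blocks glycolysis, and the study used it to ask which genes respond when lactate production is held down. The labels give no other agent and no edited allele, all groups are the same single line, and nothing in the labels says that the libraries of a group came from separate cultures, so p-values measure the spread between libraries, which may be technical.

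Expression was deposited as FPKM, read numbers divided by gene length and by library size. The libraries held 30974968 to 40843638 reads. Values of the 20 mM libraries were written with more digits than those of the control and 10 mM libraries. Whether the 20 mM libraries were processed apart was not tested, and such a difference could not be told apart from the concentration. The line's own markers were seen, with VIM at 285 ± 28.8 FPKM in control cells (SD, n = 3), while the hormone receptor genes ESR1 and PGR had at most 4 and 11 reads in any library. Of 8 genes listed to check the line, 6 could be tested, and 0 were higher and 3 lower at each concentration. That is 50% called, against 29.7% and 37.0% of all tested genes. KRT8, for example, had means of 141, 91.3 and 84.3 FPKM in control, 10 mM and 20 mM cells. Of 8 markers of leukocytes, endothelium, fat and muscle, ADIPOQ, the fat cell marker, was at 0 in every library, and the summed FPKM of all 8 was 4.43 to 5.34 in control, 2.91 to 4.27 at 10 mM and 2.06 to 2.71 at 20 mM. Of the 4 of these markers that could be tested, 0 were called at 10 mM and 2 (CD14 and PECAM1) were lower at 20 mM. Their part in the results was not tested. In bulk RNA, fewer cells that express a gene and less RNA of it per cell cannot be told apart.

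IFITM proteins are small membrane proteins that hinder enveloped viruses from fusing with the cell: IFITM1 sits largely at the cell surface, IFITM2 and IFITM3 largely in endosomes. Type I and type II interferons switch on these 3 genes through JAK kinases and transcription factors, which bind short elements in their promoters. IFITM10 carries the same CD225 domain but is a divergent member that is not counted among the classical antiviral IFITM genes, and its function is little known.

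All members lie on the short arm of chromosome 11, in build GRCh38. IFITM2 (ENSG00000185201; chr11:307631-315272, plus strand), IFITM1 (ENSG00000185885; chr11:313506-315272, plus strand) and IFITM3 (ENSG00000142089; chr11:319669-327537, minus strand) form a cluster, and IFITM10 (ENSG00000244242; chr11:1732410-1750591, minus strand) begins 1404872 bases beyond IFITM3. In GENCODE 29, IFITM1 and IFITM2 share 351 exon bases, which is 32.5% of the exon bases of IFITM1 and 22.7% of those of IFITM2, so how the authors split reads between them could move both values. IFITM3 shares 287 exon bases with an opposite-strand gene, ENSG00000255328, which held at most 4 reads in any library. The strand setting of the counting is not given in the sources used here. IFITM10 shares no exon base with its relatives.

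The 4 genes can be set side by side in a stretch of 90 coding bases, within the CD225 domain region, that aligns without a gap. This stretch was picked for the highest summed identity of the other members to IFITM3, so it understates how far the genes differ. It is shown here from the GENCODE 29 annotation on GRCh38, 5′ to 3′, with every base that differs from IFITM3 in capitals. In each gene it spans an exon junction, and each segment is exonic and coding. The segments are chr11:320565-320639 and chr11:319976-319990 for IFITM3, chr11:308364-308438 and chr11:309013-309027 for IFITM2, chr11:314282-314356 and chr11:314922-314936 for IFITM1, and chr11:1747667-1747741 and chr11:1735415-1735429 for IFITM10.
IFITM3: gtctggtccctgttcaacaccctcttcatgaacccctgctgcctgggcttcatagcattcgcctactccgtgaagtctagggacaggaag
IFITM2: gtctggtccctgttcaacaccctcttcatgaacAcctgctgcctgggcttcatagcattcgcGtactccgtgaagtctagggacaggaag
IFITM1: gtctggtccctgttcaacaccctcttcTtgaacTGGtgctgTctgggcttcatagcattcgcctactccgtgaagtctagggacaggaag
IFITM10: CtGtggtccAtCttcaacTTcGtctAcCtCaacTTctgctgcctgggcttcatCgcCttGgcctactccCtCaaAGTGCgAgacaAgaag

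IFITM2 differed from IFITM3 at 2 of the 90 bases, IFITM1 at 5 and IFITM10 at 24. Over the aligned coding bases IFITM2 and IFITM3 were 94.0% identical, IFITM1 and IFITM3 88.2% and IFITM1 and IFITM2 85.8%, while IFITM10 was 60.6 to 63.0% identical to the other three. The coding sequence of IFITM10 has 687 bases, against 378 to 402 in its relatives. Of all 100-base windows in the transcripts of IFITM3, 3.13% also occur in IFITM1 and 1.56% in IFITM2, and none of those of IFITM10 occur in a relative. Of the windows of IFITM1, 25.5% occur in IFITM2, and of those of IFITM2, 18.2% occur in IFITM1. For IFITM10, 19.1% of the windows are shared with ENSG00000250644, a gene without a symbol in the files that spans part of its locus.

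The promoters are shown because IFITM1 and IFITM3 are both classical interferon targets and yet moved differently under 2-DG. The RefSeq promoter table (GRCh38.p14) matched 2 of the 4 members. Printed are the 120 bases before the RefSeq gene start and the first 10 bases after it, chr11:313920-314049 on the plus strand for IFITM1 and chr11:320851-320980 on the minus strand for IFITM3, 5′ to 3′, with capitals marking GAAA, any 2 bases and GAAA again, the core of the interferon-stimulated response element.
IFITM1: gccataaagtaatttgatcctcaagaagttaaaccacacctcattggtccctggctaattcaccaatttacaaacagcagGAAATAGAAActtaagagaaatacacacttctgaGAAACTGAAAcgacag
IFITM3: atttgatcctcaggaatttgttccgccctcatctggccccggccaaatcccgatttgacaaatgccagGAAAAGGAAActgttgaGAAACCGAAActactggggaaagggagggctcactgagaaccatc

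Both promoters, searched from 250 bases before to 50 bases after the start on both strands, held 2 matches to this core. In IFITM1 they began 40 and 6 bases before the start, the last one running 4 bases past it, and in IFITM3 they began 52 and 35 bases before it. At least 1 match was found in 3.57% of 35116 RefSeq promoters of the same length, and at least 2 in 0.259%. TTC, any 3 bases and GAA, the core of the gamma-activated site, had 1 match in IFITM1, overlapping the match nearest the start, and 0 in IFITM3 (7.66% of promoters hold it). Both had 0 matches to the ER stress response element (CCAAT, any 9 bases and CCACG; 0.0769% of promoters) and to the core of an element bound by ATF4 (TGATG, any 1 base and AAT; 0.991%). A match is a run of letters, not a site shown to be bound.

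IFITM10 was almost silent in control cells and reached a deposited FPKM in 2-DG like or above that of IFITM1, a comparison that depends on the gene lengths used. Its FPKM was 0.417, 0.621 and 0.353 in the control libraries, 8.72, 9.76 and 6.85 at 10 mM, and 13.3, 12.9 and 11.0 at 20 mM. The 3 groups did not overlap: every 10 mM library was above every control library, and every 20 mM library was above every 10 mM library. The mean rose from 0.464 ± 0.140 FPKM to 8.45 ± 1.47 and 12.4 ± 1.26 (SD, n = 3 each), which is 18.2-fold and 26.8-fold the control mean. On the log2(FPKM + 1) scale, which understates the change of a gene this low in controls, the difference was 2.68 ± 0.13 at 10 mM and 3.20 ± 0.13 at 20 mM (limma estimate ± SE).

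In reads, IFITM10 had 71, 109 and 58 reads in the control libraries, 1468, 1911 and 1129 at 10 mM, and 1981, 2462 and 1739 at 20 mM. Summed over each group and scaled by the totals, the ratio to control was 18.3 at 10 mM and 26.6 at 20 mM, and the ratio of 20 mM to 10 mM was 1.46. Among all 16571 genes tested, IFITM10 ranked 2 in log2 fold change at both concentrations, and it ranked 1 among the 14976 that carry a symbol. Rank 1 was taken by ENSG00000286966, which has no symbol in the files and is not in GENCODE 29, with differences of 3.85 and 4.31. The next gene after IFITM10 at 20 mM was HSPA5, the main chaperone of the endoplasmic reticulum, with 2.38.

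**Figure D1:**
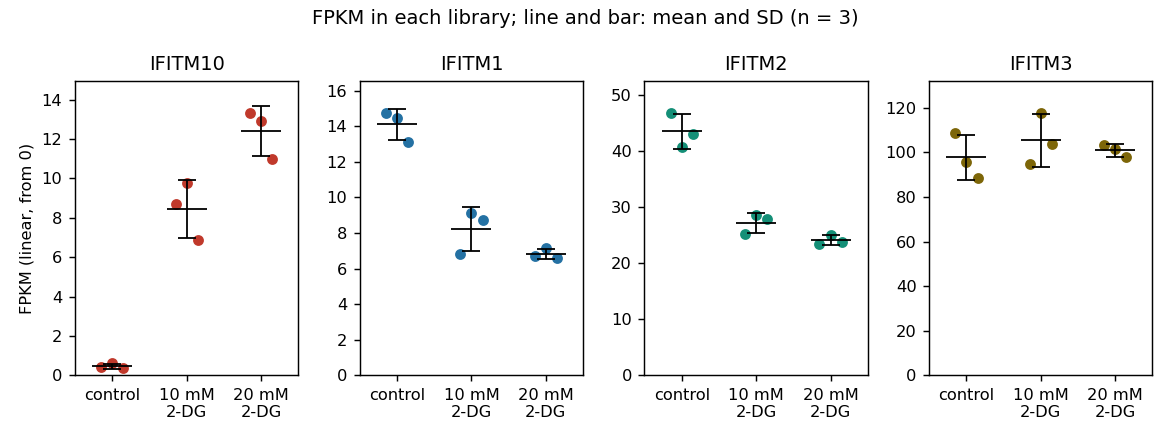
FPKM of IFITM10, IFITM1, IFITM2 and IFITM3 in each library, 1 panel per gene with its own linear axis from 0; points are libraries, the line and bar are the mean and SD (n = 3). IFITM10 goes from at most 0.621 in control to at least 11.0 at 20 mM, IFITM1 and IFITM2 are lower in every 2-DG library than in every control library, and the groups of IFITM3 overlap.

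IFITM1, the family member of the cell surface, was lower under 2-DG. Its FPKM was 14.8, 14.5 and 13.1 in control libraries, 6.82, 9.13 and 8.73 at 10 mM, and 6.70, 7.14 and 6.59 at 20 mM. No 2-DG library reached the lowest control library. The group means were 14.1 ± 0.885, 8.22 ± 1.24 and 6.81 ± 0.288 FPKM (SD, n = 3 each). IFITM1 fell by 0.72 ± 0.10 on the log2 scale at 10 mM (adjusted p = 5.45e-04, limma) and fell by 0.95 ± 0.10 at 20 mM (adjusted p = 6.71e-05, limma).

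IFITM2, one of the endosomal members, fell almost in parallel with IFITM1, with which it shares exon bases. It was at 46.8, 40.6 and 43.0 FPKM in control libraries, at 25.2, 28.5 and 27.9 at 10 mM, and at 23.4, 25.1 and 23.8 at 20 mM. Again the control libraries lay above all the others, and here the 20 mM libraries also lay below all 10 mM libraries. The means were 43.5 ± 3.12, 27.2 ± 1.76 and 24.1 ± 0.868 FPKM (SD, n = 3 each). The log2 change was -0.66 ± 0.07 at 10 mM (adjusted p = 1.15e-04, limma) and -0.82 ± 0.07 at 20 mM (adjusted p = 1.79e-05, limma).

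IFITM3, the endosomal member with the best known antiviral role and the highest level of the family, showed no such shift. Its libraries were at 109, 95.7 and 88.8 FPKM in control, 94.6, 118 and 104 at 10 mM, and 103, 102 and 97.8 at 20 mM, so the 3 groups overlapped. The means were 97.8 ± 10.2, 105 ± 11.7 and 101 ± 2.92 FPKM (SD, n = 3 each). The log2 change was 0.11 at 10 mM, with a 95% interval from limma of -0.10 to 0.31 (adjusted p = 0.430), and 0.05 at 20 mM, with an interval of -0.16 to 0.26 (adjusted p = 0.715). The sign at 20 mM was not fixed: leaving out control replicate 3 gave -0.016.

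Against this, 29.7% of all tested genes were called at 10 mM and 37.0% at 20 mM at an adjusted p under 0.05, where 12.1% and 15.4% were higher and 17.5% and 21.6% lower. Groups that did not overlap, in either direction, were seen for 40.5% and 53.3% of tested genes. Thus 2 of the 3 relatives of IFITM10 were called at each concentration, both lower, in libraries where a call was common. The median log2 change over all tested genes was -0.011 at 10 mM and -0.021 at 20 mM. By a stricter rule after the study's own definition, an unadjusted p under 0.05 with an absolute log2 fold change over 1, which 1.74% and 2.92% of tested genes met, 0 of the 3 relatives passed at either concentration on the log2(FPKM + 1) scale. That count depends on the offset: at 20 mM IFITM1 passed with a pseudocount of 0.1 (-1.04) and with limma-voom on recovered reads (-1.05), settings in which 8.97% and 12.8% of tested genes met the rule, and at 10 mM, where 6.06% and 9.58% met it, 0 of the 3 passed. The comparisons with control share the same 3 control libraries.

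**Figure D2:**
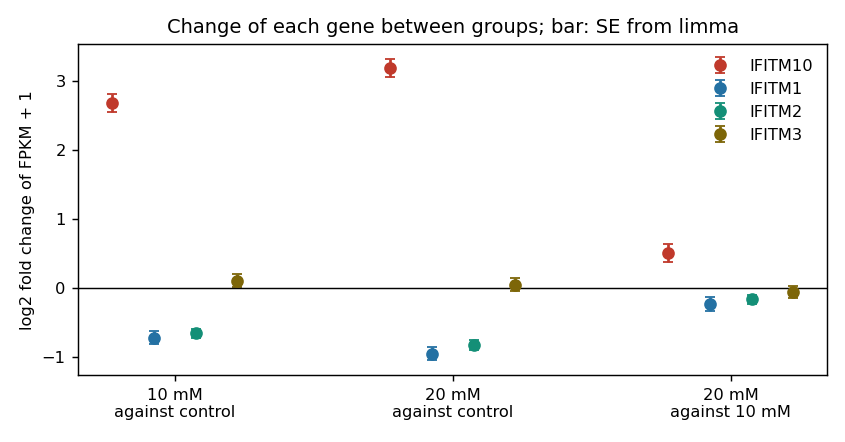
Log2 fold change of FPKM + 1 for the 4 members in the 3 comparisons between groups; points are limma estimates and bars their SE. IFITM10 lies at 2.68 and 3.20 against control, IFITM1 and IFITM2 between -0.66 and -0.95, and IFITM3 near 0.

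Between the concentrations IFITM10 moved further than its relatives in these values. It was 0.51 ± 0.13 higher at 20 mM than at 10 mM on the log2 scale, with no overlap between libraries, as for 11.9% of tested genes, which ranked it 31 of 16571 tested genes on this scale, 299 with a pseudocount of 0.1 and 737 with limma-voom on recovered reads. IFITM1 was at -0.23 (95% interval -0.45 to -0.01, unadjusted p = 0.0415, adjusted p = 0.715, limma), IFITM2 at -0.17 (-0.32 to -0.01, unadjusted p = 0.0389, adjusted p = 0.705) and IFITM3 at -0.06 (-0.26 to 0.15, adjusted p = 0.980). No gene among the 16571 passed an adjusted p under 0.05 in this comparison (0%), whereas 1140 (6.88%) had an unadjusted p under 0.05.

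The order of the members by FPKM changed with 2-DG. In control cells it was IFITM3, IFITM2, IFITM1 and IFITM10, with no overlap between neighbours in any library. At 10 mM IFITM10 (6.85 to 9.76 FPKM) and IFITM1 (6.82 to 9.13 FPKM) overlapped and did not differ beyond their spread. At 20 mM IFITM10 (11.0 to 13.3 FPKM) lay above IFITM1 (6.59 to 7.14 FPKM) and below IFITM2. Within a library, IFITM10 was at 0.0327 ± 0.00888 times the FPKM of IFITM1 in control, 1.04 ± 0.248 times at 10 mM and 1.82 ± 0.163 times at 20 mM (SD, n = 3 each). Its share of the summed FPKM of the 4 genes went from 0.299% ± 0.0960 to 5.67% ± 0.915 and 8.59% ± 0.625, while that of IFITM2 went from 28.0% ± 1.48 to 18.3% ± 0.896 and 16.7% ± 0.685. The sum of all 4 was 145 to 171 FPKM in control, 135 to 165 at 10 mM and 139 to 147 at 20 mM, with overlap between all groups. Levels per length depend on the gene lengths the authors used: the values fit a length of 1666 bases for IFITM1, against 1080 exon bases in GENCODE 29, of 2844 against 1348 for IFITM3, of 1606 against 1543 for IFITM2 and of 4792 against 4784 for IFITM10. At the shorter length the FPKM of IFITM1 would be higher, so its order against IFITM10 at 10 mM depends on the length used. The ratio of a gene's FPKM between groups does not depend on its length, whereas a log2 change of FPKM + 1 does to some extent.

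**Figure D3:**
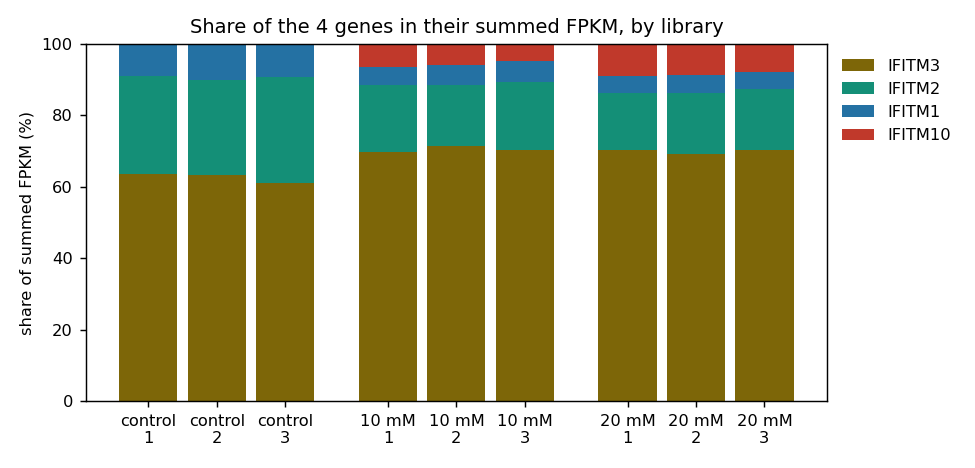
Share of each member in the summed FPKM of the 4 genes (%, stacked from 0 to 100), 1 bar per library. IFITM10 takes 0.299% on average in control and 8.59% at 20 mM, and IFITM3 takes the greatest share in all 9 libraries.

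Ratios of FPKM within a library do not depend on how libraries are scaled. The log2 ratios tested here were of FPKM + 1, which leaves a slight dependence and weighs most on IFITM1, the lowest of these genes. The log2 ratio of IFITM3 to IFITM2 was 1.15 ± 0.10 in the 3 control libraries and 1.97 ± 0.09 in the 6 libraries with 2-DG (mean ± SD), and it was higher in 6 of 6 of these than in any control library. The difference was 0.82 (two-sided exact permutation p = 0.0238, adjusted p = 0.0357 over 3 ratios). For IFITM3 to IFITM1 the ratio went from 2.71 ± 0.08 to 3.62 ± 0.12, a difference of 0.91 with the same p-values, which are the smallest that 6 against 3 libraries allow. For IFITM2 to IFITM1 it was 1.56 ± 0.11 against 1.65 ± 0.08, a difference of 0.09 that did not exceed the spread (exact permutation p = 0.214, adjusted p = 0.214). IFITM1 and IFITM2 thus fell relative to IFITM3, and a difference between their own changes was not detectable. The ratios follow from the levels given above and are not a separate result. Single genes did not overlap with control for 40.5% of tested genes at 10 mM and 53.3% at 20 mM. How often ratios of other gene pairs separate in this way was not tested. How far their shared exon bases make IFITM1 and IFITM2 move alike was not tested. Leaving out any 1 library left too few arrangements for the first 2 ratios to pass, with adjusted p from 0.0536 to 0.107.

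The neighbours of IFITM10 did not share its rise in size. CTSD, the gene of the lysosomal protease cathepsin D, starts 2160 bases beyond IFITM10 and was at 109, 118 and 111 FPKM on average in control, 10 mM and 20 mM cells, with log2 changes of 0.11 (adjusted p = 0.512, limma) and 0.031 (adjusted p = 0.859). The overlapping ENSG00000250644 (chr11:1734821-1763954, minus strand), which shares 1062 exon bases or 22.2% of those of IFITM10, went from 0.320 to 0.635 and 0.744 FPKM, with log2 changes of 0.30 (adjusted p = 0.0499, limma) and 0.40 (adjusted p = 0.0119). It held 165 reads over the control libraries and 371 over the 20 mM libraries, when IFITM10 went from 238 to 6182. Since the sequence is shared, how reads were divided between these genes was not tested. Of the remaining nearest tested protein-coding genes, MOB2 rose at 20 mM by 0.38, MRPL23 and CD81 were lower by 0.49 and 0.47 (log2 changes of -0.49 and -0.47), and DUSP8 and BRSK2 were not called.

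Around the cluster the picture was likewise mixed. PSMD13, a proteasome subunit gene, was lower by -0.46 on the log2 scale at 20 mM (adjusted p = 4.59e-03, limma), and B4GALNT4, a glycosyltransferase gene 42258 bases beyond IFITM3, by -0.81 (adjusted p = 7.94e-04). PGGHG, SIRT3, PKP3 and SIGIRR had changes from -0.18 to 0.25 and were not called.

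**Figure D4:**
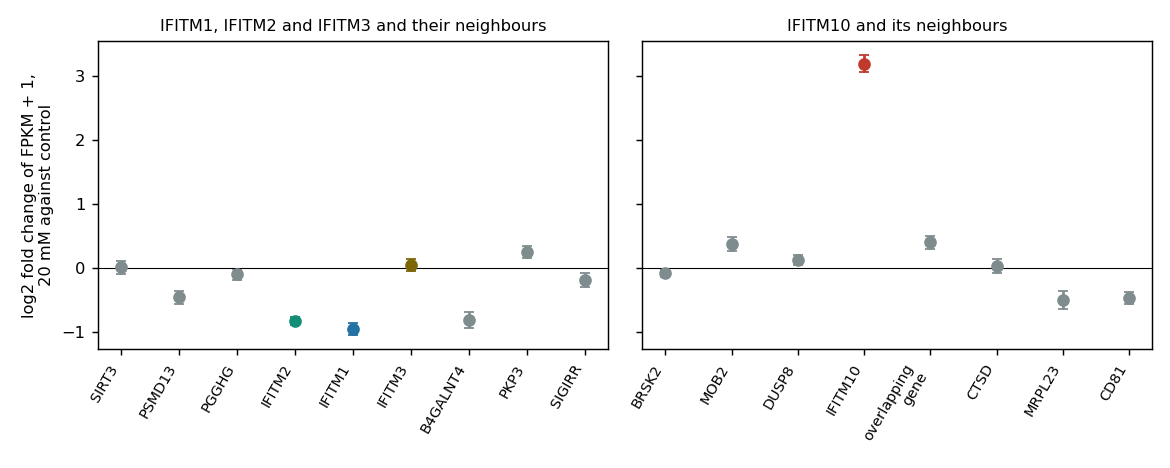
Log2 fold change of FPKM + 1 at 20 mM against control for the members (coloured) and the 3 nearest tested protein-coding genes on each side (grey), in chromosomal order; bars are SE from limma, and the gene overlapping IFITM10 is ENSG00000250644. IFITM10 stands at 3.20 while its neighbours lie between -0.49 and 0.40.

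The genes that drive the interferon-induced members were examined from a list of ligands, receptors, kinases, factors and inhibitors. Of 10 interferon genes, 9 were at 0 in all 9 libraries, which allows up to 3 reads in each, and IFNL1, a type III interferon, had 0 to 10 reads. All 20 receptor and signalling genes were tested: 1 was higher and 7 lower at 10 mM, and 1 was higher and 6 lower at 20 mM, with medians of -0.054 and -0.055 on the log2 scale. The called share was 40% at 10 mM, against 29.7% of all tested genes, and 35% at 20 mM, close to the 37.0% of all tested genes. Without control replicate 3, 4 were lower at 10 mM. With libraries scaled by median ratios, 3 were higher and 6 lower at 20 mM. Lower at 20 mM were the feedback inhibitors SOCS1 (-0.85 ± 0.11) and SOCS3 (-0.58 ± 0.08) and the type III receptor IFNLR1 (-0.46 ± 0.10). USP18, an inhibitor at the type I receptor that is itself interferon-induced, was higher (0.28 ± 0.09, adjusted p = 0.0349, limma), but the call was lost with a replicate block or without any 1 of 4 libraries.

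Interferon-stimulated genes other than the members moved both ways. Of 40 genes, all tested, 14 were higher and 7 lower at 10 mM, or 52.5% called against 29.7% of all tested genes. At 20 mM, 8 were higher and 10 lower, or 45% against 37.0%. Of all tested genes 12.1% were higher and 17.5% lower at 10 mM, so the excess of calls there lay among the higher genes. At 20 mM these shares were 15.4% and 21.6%. The medians were 0.079 and -0.027 on the log2 scale. Lowest at 20 mM was BST2 (tetherin, which holds budding virus at the cell surface), from 211 ± 15.6 to 108 ± 2.54 FPKM and by -0.95 ± 0.10 on the log2 scale. That is the value of IFITM1 to 2 decimals. IFI6 (-0.63 ± 0.13), SAMHD1, which depletes nucleotides for reverse transcription (-0.62 ± 0.09), and UBE2L6, the enzyme that conjugates ISG15 (-0.50 ± 0.08), were lower too. Highest on this scale, which compresses low genes, were the nuclease gene ISG20 (0.67 ± 0.10), the RNA sensor IFIH1 (0.66 ± 0.08), RSAD2 (viperin, 0.57 ± 0.08) and IFI44 (0.47 ± 0.07). By the ratio of mean FPKM the order differs, with RSAD2 at 3.82-fold and IFI44L, named after its value was seen, at 2.26-fold above ISG20 at 1.72-fold, IFIH1 at 1.71-fold and IFI44 at 1.41-fold. IFIT1 was higher at 10 mM (0.47, adjusted p = 2.42e-03, limma) and at -0.028 at 20 mM (adjusted p = 0.822). Without 20 mM replicate 1, 6 rather than 10 genes were lower at 20 mM. IFITM1 and IFITM2 therefore sat with the lower genes of this list and IFITM3 with those not called.

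**Figure D5:**
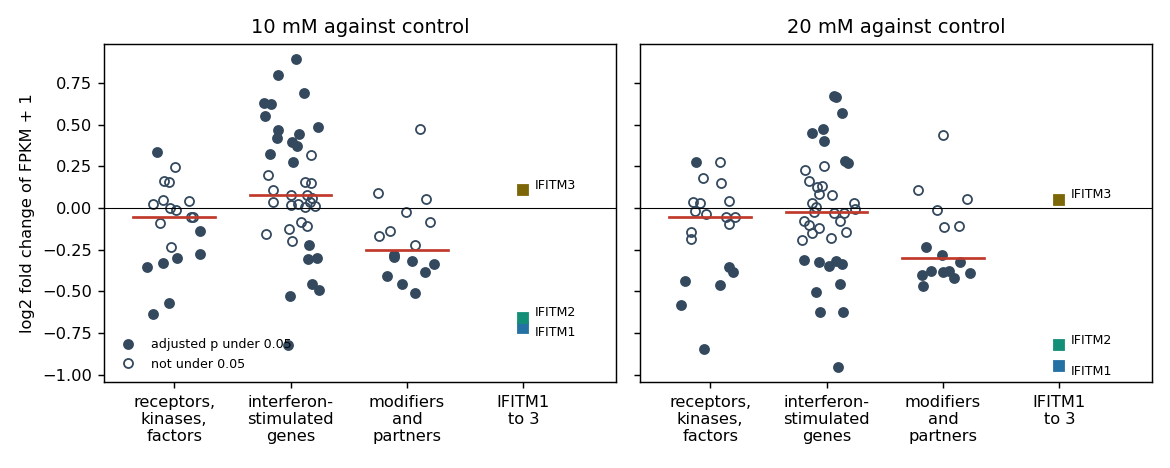
Log2 fold change of FPKM + 1 for 20 receptor and signalling genes, 40 interferon-stimulated genes and 16 modifiers and partners of IFITM proteins, at 10 mM (left) and 20 mM (right) against control; circles are genes, filled where the adjusted p is under 0.05, red lines are medians and squares are IFITM1, IFITM2 and IFITM3. The stimulated genes spread to both sides of 0, with medians of 0.079 and -0.027, and IFITM1 and IFITM2 lie below most of them.

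The transcripts of proteins that modify or bind IFITM proteins were lower in part. Of 16 such genes, 0 were higher and 8 lower at 10 mM, and 0 were higher and 10 lower at 20 mM, so that 50% and 62.5% were called lower against 17.5% and 21.6% of all tested genes, with medians of -0.25 and -0.30 on the log2 scale. Median-ratio scaling gave 1 higher and 8 lower at 20 mM. The palmitoyl transferase ZDHHC20, whose modification anchors IFITM3 in membranes, was at -0.42 ± 0.13, the sorting adaptor subunit AP2A1, which serves endocytosis from the cell surface, at -0.40 ± 0.07, and the tetraspanins CD81 and CD9 at -0.47 ± 0.09 and -0.39 ± 0.07. The ubiquitin ligase NEDD4, which acts on IFITM3, was at 0.44 and not called (adjusted p = 0.0682, limma).

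Related genes outside the members gave few reads. Of 8 other CD225 domain genes found in the files, SYNDIG1 and TMEM233 were at 0 in every library. Of the 3 that were tested, 1 was called at each concentration, higher. That is 33.3%, close to the 29.7% and 37.0% of all tested genes called at 10 mM and 20 mM. At 20 mM it was TMEM91 (0.30 ± 0.10, adjusted p = 0.0347, limma), and the call was lost without the filter, with limma-voom, with a replicate block and without any 1 of 4 libraries. IFITM5, the member of the cluster that is expressed in bone, had 0 to 4 reads per library. Of 12 IFITM pseudogenes, 3 were at 0 throughout, and all 12 together held 54 to 104 reads per library, against 8659 to 13695 for IFITM3 alone. Of these pseudogenes 4 had enough reads to test, and they went both ways over the control, 10 mM and 20 mM libraries. IFITM3P3 and IFITM3P1, picked out after their values were seen, had 8, 41 and 37 reads and 14, 41 and 58 reads. IFITM4P had 124, 76 and 88 reads and IFITM3P2 had 30, 27 and 22.

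The genes most like IFITM10 over the 9 libraries were sought among 9823 other protein-coding genes with a mean of at least 1 FPKM, by Pearson's r of log2(FPKM + 1). The 8 nearest were SLC3A2, a subunit of amino acid transporters (r = 0.999), BAMBI, a decoy receptor for TGF-beta signals (0.998), the pannexin channel PANX2 and the phosphodiesterase PDE2A (0.997 each), the protein disulfide isomerase P4HB and RPN1, a subunit of the enzyme that attaches N-glycans (0.996 each), and the glutamine transporter SLC1A5 and the factor CEBPG (0.995 each). SLC3A2 went from 108 ± 4.40 to 367 ± 38.7 and 451 ± 18.1 FPKM (SD, n = 3 each). The 9 points share 3 treatment groups, so a high r mainly reflects the steps between them, and 453 genes had an r over 0.95.

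For the summed FPKM of IFITM1, IFITM2 and IFITM3 the 8 nearest genes were NDUFS8, CLTB, TECR, SNRPA, LRRC61, VPS16, MTLN and C8orf82, with r from 0.985 to 0.974, and 27 genes had an r over 0.95. IFITM3 makes up most of this sum, and its spread between replicates enters these values. Taken alone, IFITM1, IFITM2 and IFITM3 had 526, 710 and 1 genes with an r over 0.95. Over the same 9 libraries IFITM10 itself had an r of -0.956 with IFITM1, -0.980 with IFITM2 and 0.324 with IFITM3.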

How the data were processed

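RNA-seq of 9 libraries was deposited by the authors as FPKM per gene, 1 file per library, with builds GRCh38 and hg38 named in the submitters' processing notes. The aligner, counter, annotation release and strand setting are not given in the sources used here. FPKM values are whole multiples of what 1 read is worth, so reads were recovered. The GENCODE 29 length gave whole reads for 48.6% of genes above 0. For the rest, the shortest length up to 60000 bases that gave whole reads was taken. In this way 32804 of 32806 genes above 0 gave whole numbers within 0.02 of a read. Since the length was searched for, this count does not show that each length is the authors' own. Genes with at least 10 reads in 3 libraries and 15 in all were kept, and log2(FPKM + 1) was tested with limma 3.58.1 (R 4.3.3; trended prior, all 9 libraries in 1 fit, groups as the only term), with Benjamini-Hochberg adjustment over all 16571 genes. No count model was used as the main test. On simulated counts for 20 mM against control, 92.5% of 200 genes changed 4-fold were recovered and 14 unchanged genes were called. The simulation used the same fixed spread beyond counting noise for every gene and group. It therefore does not give the error rate at the spread of these libraries or the power for smaller changes. Ratios were tested by exact permutation (SciPy 1.17.1). Replicates of a group correlated at 0.989 to 0.996 and differed by more than counting noise, so none was merged. As a ratio to counting noise, the variance between replicates was 14.1 to 21.5 in control, 26.4 to 56.6 at 10 mM and 4.66 to 6.56 at 20 mM. Sequences and positions came from GENCODE 29 and RefSeq.

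The members and lists were chosen with earlier results of these data known. Named beside the members were the genes next to IFITM10 in rank, up to 4 genes per list and direction with the greatest change among those called at 20 mM and any list gene at 0, the 8 genes nearest in pattern, and the 3 nearest tested protein-coding genes on each side; some list genes that the rule would name are not reported here; others are named where the text says so or as examples from a list. Alternatives were another pseudocount, no filter, median-ratio scaling, limma-voom on the recovered reads, the libraries of 1 comparison alone, a replicate block and leaving out each library.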

Additional observations from a re-analysis of the deposited data

How the results depend on the processing

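IFITM1 and IFITM2 stayed lower than control and called at both concentrations under all 15 alternatives, with adjusted p up to 3.64e-03 (limma). The log2 change of IFITM10 depends on the offset: with a pseudocount of 0.1 it was 3.94 at 10 mM and 4.50 at 20 mM, with limma-voom on recovered reads 4.20 and 4.76, and as a ratio of summed reads scaled by library totals, an alternative chosen after seeing the data, 4.19 and 4.74. With limma-voom it ranked 5 at 20 mM. IFITM3, not called in any setting, changed sign at 20 mM against control without control replicate 3 (-0.016, with a range of -0.016 to 0.13 over the libraries left out) and at 20 mM against 10 mM without 10 mM replicate 2 (0.027, range -0.13 to 0.027). The differences between 2-DG and control in the log2 ratios of IFITM3 to IFITM2 and to IFITM1 were 0.76 to 0.85 and 0.88 to 0.96 with 1 library left out, with adjusted p of 0.0536 to 0.107, since fewer libraries allow no smaller p.

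Same-numbered libraries did not deviate together (r of -0.41 to 0.29), so the numbers do not pair them. Between libraries of other numbers r was -0.23 to 0.52, and whether libraries pair in another order was not tested. The replicate block follows the numbers. With a replicate block the log2 changes at 20 mM stayed at -0.95 for IFITM1 (adjusted p = 4.12e-04, limma) and -0.82 for IFITM2 (adjusted p = 2.77e-04), and at 20 mM 0 receptor or signalling genes and 0 other CD225 genes were higher, against 1 of each without it; it moved no other count by over 1.5 times. By the stricter rule (log2 change beyond 1 either way and p under 0.05 without adjustment), 0 genes of any list passed in either direction on the log2(FPKM + 1) scale. With a pseudocount of 0.1 and with limma-voom, alternatives added after seeing the data, 0 and 1 receptor or signalling genes passed at 10 mM and 1 and 1 at 20 mM, 2 and 3 stimulated genes at 10 mM and 1 and 2 at 20 mM, and 1 and 1 of IFITM1, IFITM2 and IFITM3 at 20 mM. At 20 mM these include SOCS1 and RSAD2 under both.

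For the receptor and signalling list, genes higher at 10 mM numbered 0 in the 6 libraries of that comparison and 0 to 1 with a library left out, genes lower at 10 mM 4 to 8 with a library left out (4 without control replicate 3), and genes higher at 20 mM 3 with median-ratio scaling and 0 to 1 with a library left out. Modifiers higher were 1 at both concentrations with median-ratio scaling and limma-voom, 1 at 20 mM in the 6 libraries of that comparison, and 0 to 1 with a library left out. Stimulated genes lower at 20 mM were 6 to 10 with a library left out. Other CD225 genes higher numbered 0 without a filter at both concentrations, 0 at 20 mM with limma-voom and 0 to 1 with a library left out. In a list of 3 of the pseudogenes, of which only 1 (IFITM4P) was tested, 0 to 1 were lower at 10 mM with a library left out. The cause of these shifts was not tested. Control libraries held 58 to 109 reads of IFITM10, which limits the precision of its fold.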
